A study of Mus musculus with 6 samples.

Results

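The visual cycle genes described here are Rpe65, Lrat, Rdh5, Rdh8, Rdh10, Rdh11, Rdh12, Rbp3 and Stra6, 9 of the 24346 gene symbols measured in mouse retina. They were chosen by name, as the retinoid isomerase, the acyltransferase, the retinol dehydrogenases and the retinoid binding and uptake proteins, and matched exactly to the symbols in the tables. RNA came from whole retina of 3 wild-type libraries (Unc119+/+) and 3 libraries of Unc119-/- mice, termed knockout. UNC119 binds lipid-modified proteins such as rod transducin and helps carry them within photoreceptors. The sources used here do not give strain, age, how the allele was made, or whether each library came from its own animal. P-values thus measure the spread between these libraries, which may be technical in part. By Xist and Y-linked genes, wild-type libraries 1 and 2 and knockout library 1 were male and the others female. The libraries of a genotype therefore did not all come from the same animal. Values are FPKM, fragments scaled to transcript length and library size, so levels of different genes can be compared per length.

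The visual cycle regenerates the light-sensitive chromophore of the opsins. Light turns the bound cis-retinal into all-trans-retinal, which photoreceptors reduce to retinol. The retinol crosses the space between the cells to the pigment epithelium, a sheet of pigmented cells behind the retina, where it is stored as an ester, isomerised to the cis form, oxidised and sent back. Loss of single steps causes inherited retinal disease, RPE65 and RDH12 being known examples. RDH8, RDH12 and the carrier IRBP, encoded by Rbp3, serve the photoreceptor side. RPE65, LRAT, RDH5 and the retinol transporter STRA6 serve the pigment epithelium, while Rdh10 and Rdh11 are expressed in that tissue and in others.

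Rpe65 and Rbp3 had the highest mean level of the pigment epithelium and the photoreceptor group, and their promoters are shown because the groups behaved differently between libraries. RefSeq promoter windows on GRCm38.p6 matched 8 of the 9 genes, all but Rdh10, with 12 windows in all. The 250 bases before the transcription start were searched on both strands for TAATCC, the core bound by the photoreceptor and pigment epithelium factors CRX and OTX2, for CATGTG, an E-box bound by MITF, and for the E-box CACGTG. No match overlapped another. Capitals mark TAATCC, read as GGATTA on the other strand, and CATGTG, read as CACATG on the other strand.
Rpe65, chr3:159598931-159599180, plus strand: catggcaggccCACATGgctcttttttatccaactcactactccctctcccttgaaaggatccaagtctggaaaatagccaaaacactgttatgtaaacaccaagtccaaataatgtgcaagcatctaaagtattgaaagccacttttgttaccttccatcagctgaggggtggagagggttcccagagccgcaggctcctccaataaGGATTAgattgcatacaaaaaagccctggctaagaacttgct
Rbp3, chr14:33953753-33954002, plus strand: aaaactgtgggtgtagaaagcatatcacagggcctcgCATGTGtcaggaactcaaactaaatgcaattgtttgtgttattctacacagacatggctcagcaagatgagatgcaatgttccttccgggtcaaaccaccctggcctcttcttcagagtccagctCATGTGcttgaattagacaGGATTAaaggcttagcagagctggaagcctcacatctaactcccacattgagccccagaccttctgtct
GGATTA began 42 bases before the start of Rpe65 and 69 bases before that of Rbp3, and no other window of the 12 held TAATCC on either strand. CATGTG or its reverse complement was found once in the Rpe65 window and 2 times in the Rbp3 window, and CACGTG was found only in a window of Rdh11. Of all 32851 mouse promoter windows of this length, 6.25% held TAATCC, 12.3% CATGTG and 6.02% CACGTG. These matches describe letters only, and binding was not measured here.

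Gnat1, the rod transducin subunit, was measured at 5918 to 6528 FPKM over the 6 retinal libraries, and 16 rod markers together held 23958 to 26315 FPKM in wild type and 24381 to 25807 FPKM in the knockout. Unc119 itself was lower in each knockout library (449 to 510.2 FPKM) than in each wild-type library (1187 to 1206 FPKM), a log2 change of −1.34 (SE 0.06, limma adjusted p = 6.61e-05). The number of fragments per library is unknown from FPKM. Relative depth, read from the steps between low values, ran from 0.763 to 1 in wild type and from 0.931 to 0.964 in the knockout. Knockout library 3 stood apart, with 12041 FPKM summed over 21 lens markers, against 0.841 to 843 FPKM in the wild-type libraries and 289 and 712 FPKM in knockout libraries 1 and 2. All 21 lens markers were higher in the knockout by their means, with a median log2 change of 2.33, and none was called. Cryaa, the most abundant of them, reached 5296 FPKM in knockout library 3 and had the largest change (4.38, adjusted p = 0.584, and 2.59 without that library).

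None of the 9 visual cycle genes was called higher or lower in the knockout by limma at an adjusted p under 0.05. All 9 had a mean of at least 0.5 FPKM and were tested. Of the 14176 genes tested, 0.233% were called in either direction, 0.205% higher and 0.0282% lower. At an unadjusted p under 0.05 the count was 1 of 9 members, Rdh12, which was lower, and over all genes 8.99% were at that level, 5.18% higher and 3.81% lower. The median log2 change of the 9 genes was −0.02, from −0.15 for Stra6 to 0.15 for Rpe65, and the median over all genes tested was 0.00. The groups differed in spread, but also in level. The photoreceptor genes varied between libraries by at most 1.19 times from lowest to highest, whereas the pigment epithelium genes varied by 2.25 to 4.46 times. Ranked among genes within 2-fold of their own mean level, the groups overlapped. Rdh12 spanned a wider range than 75.4% of such genes, and Lrat than 72.8%.

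**Figure D1:**
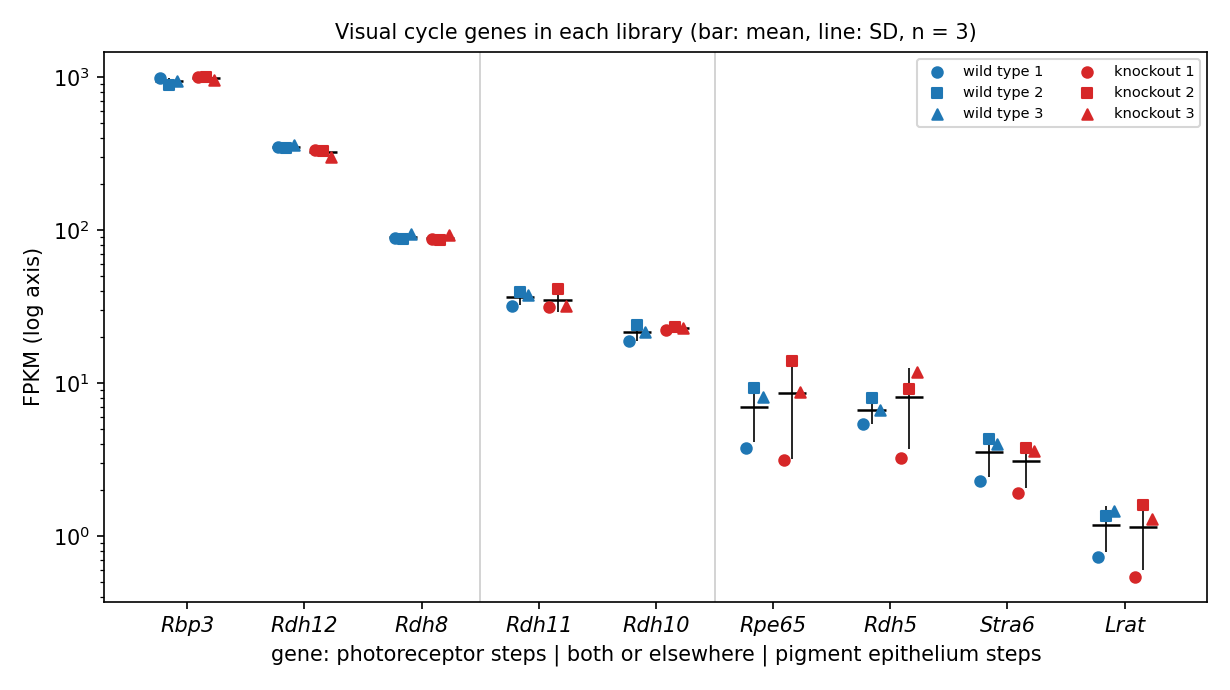
FPKM on a log axis for each visual cycle gene in the 3 wild-type (blue) and 3 knockout (red) libraries, with bars for the mean and lines for the SD. Rbp3 lies highest at 893 to 1006 FPKM and Lrat lowest at 0.543 to 1.61 FPKM, and libraries 1 of both genotypes (circles) are the lowest points of Rpe65, Rdh5, Stra6 and Lrat.

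By mean level the genes fell into the order of their groups. Rbp3 was highest with a mean of 967 FPKM over the 6 libraries, then Rdh12 (338), Rdh8 (90.1), Rdh11 (35.7), Rdh10 (22.2), Rpe65 (7.85), Rdh5 (7.41), Stra6 (3.32) and Lrat (1.17). From Rbp3 down to Rpe65, and between Stra6 and Lrat, neighbouring genes did not overlap in any library. Rpe65 and Rdh5 could not be ordered, since Rpe65 was the higher of them in 3 of the 6 libraries. Rdh5 was above Stra6 within each of the 6 libraries, although their ranges overlapped. All 3 photoreceptor genes thus lay above the 4 pigment epithelium genes, with Rdh11 and Rdh10 between them. The share of pigment epithelium in these retinal libraries was not measured. The order thus describes the libraries and not the RNA level within the cells of each step.

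Rbp3 (ENSMUSG00000041534.9, chromosome 14, 33954003 to 33964216, plus strand) encodes the carrier that shuttles retinoids through the matrix between photoreceptors and pigment epithelium. It measured 991, 893 and 945 FPKM in wild-type libraries 1, 2 and 3 and 1003, 1006 and 966 FPKM in knockout libraries 1, 2 and 3. Wild-type library 2 was the lowest and knockout library 2 the highest, and the genotypes overlapped through wild-type library 1. The means were 943 ± 48.8 and 992 ± 22.5 FPKM (SD, n = 3 each), with a log2 change of 0.07 (95% interval −0.05 to 0.19, limma adjusted p = 0.695). On the scale of FPKM + 1 that interval spans 0.969 to 1.14 times the wild-type level.

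Rdh12 (ENSMUSG00000021123.12, chromosome 12, 79208914 to 79222665, plus strand) encodes the dehydrogenase of photoreceptor inner segments that reduces retinal and other aldehydes. It measured 351, 346 and 360.2 FPKM in wild-type libraries 1, 2 and 3 and 335, 333 and 302 FPKM in knockout libraries 1, 2 and 3. Each knockout library was below each wild-type library, as for 8.04% of all genes tested, and knockout library 3 was the lowest. The means were 352 ± 7.28 and 323 ± 18.5 FPKM (SD, n = 3 each), or 91.8% of wild type in the knockout. The log2 change was −0.12 (SE 0.05, 95% interval −0.24 to −0.01), with an unadjusted p of 0.0419 and a limma adjusted p of 0.535. Without knockout library 3 it was −0.08 (adjusted p = 0.747), with a lens marker covariate −0.06 (adjusted p = 0.97), and over all alternatives −0.15 to −0.06. The part of lens RNA in this difference was not tested beyond these values.

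Rdh8 (ENSMUSG00000053773.5, chromosome 9, 20818503 to 20826117, plus strand) encodes the outer segment enzyme that reduces all-trans-retinal after bleaching. It measured 89.6, 88.0 and 94.7 FPKM in wild-type libraries 1, 2 and 3 and 88.4, 87.1 and 92.7 FPKM in knockout libraries 1, 2 and 3. The genotypes overlapped, with knockout library 2 the lowest of all and wild-type library 3 the highest. The log2 change was −0.02 (95% interval −0.13 to 0.09, limma adjusted p = 0.911), and on the scale of FPKM + 1 the interval spans 0.913 to 1.06 times the wild-type level. Among the 1376 genes within 2-fold of its mean level, only 12.6% spanned a smaller range over the 6 libraries.

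The photoreceptor genes were also set against each other within each library. Rbp3 was 2.83, 2.58 and 2.62 times Rdh12 in the wild-type libraries and 2.99, 3.02 and 3.20 times in the knockout libraries. Rbp3 as a ratio to Gnat1 was 0.152, 0.148 and 0.150 in wild type and 0.162, 0.159 and 0.163 in the knockout. Either ratio separated the genotypes, but these ratios were formed after the values were seen, and no test is given for them. Rdh12 over Gnat1 was 0.0537 to 0.0575 in wild type and 0.0510 to 0.0541 in the knockout, with overlap through wild-type library 1 and knockout library 1. Rdh8 over Gnat1 ran from 0.0137 to 0.0157 with overlapping genotypes. Abca4, the flippase that clears retinal from outer segment discs, measured 300.2, 264 and 303 FPKM in wild type and 266, 265 and 263 FPKM in the knockout libraries, a log2 change of −0.12 (limma adjusted p = 0.575). Wild-type library 2 was within the knockout range of Abca4, so the genotypes overlapped.

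**Figure D2:**
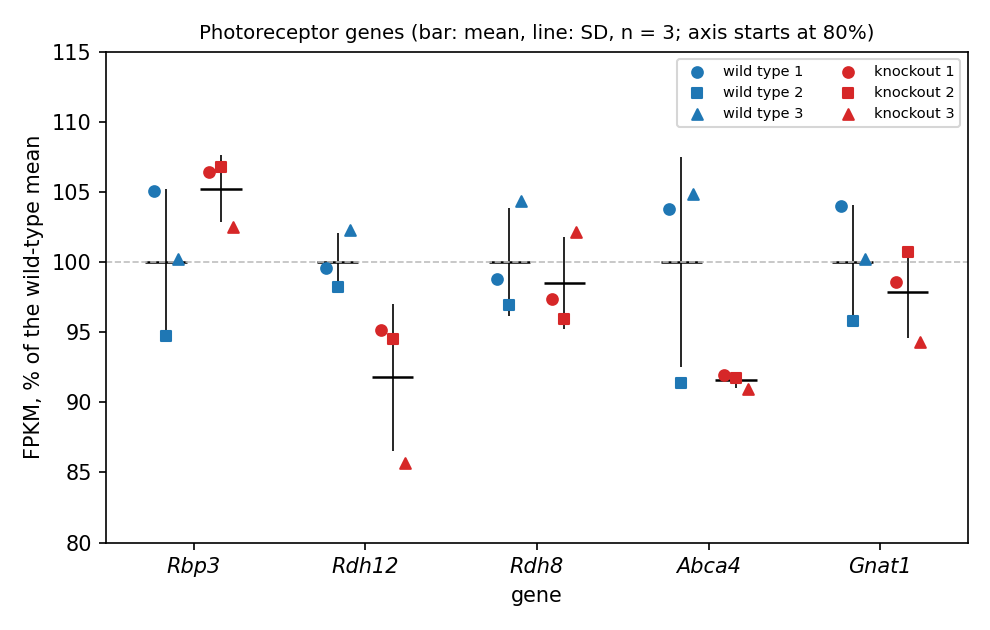
FPKM of Rbp3, Rdh12, Rdh8, Abca4 and Gnat1 in each library as a percentage of the wild-type mean of the gene, with the axis starting at 80%, bars for means and lines for SDs (n = 3). Rdh12 is the gene whose knockout libraries all lie under the wild-type ones, with a knockout mean of 91.8%.

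Rdh11 (ENSMUSG00000066441.14, chromosome 12, 79174337 to 79192293, minus strand) encodes a microsomal retinol dehydrogenase of broad expression. It measured 32.2, 39.5 and 37.6 FPKM in wild-type libraries 1, 2 and 3 and 31.5, 41.4 and 31.8 FPKM in knockout libraries 1, 2 and 3. Knockout library 2 was the highest of all and both other knockout libraries were the lowest, so that the genotypes overlapped (log2 change −0.07, 95% interval −0.34 to 0.20, limma adjusted p = 0.888). Rdh11 lies beside Rdh12 on chromosome 12, and the enzymes are close relatives. No stretch of 50 bases was shared by the annotated coding transcripts of Rdh11 and Rdh12, nor by those of any other pair among the 9 genes.

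Rdh10 (ENSMUSG00000025921.7, chromosome 1, 16105774 to 16133734, plus strand) oxidises retinol to retinal, also in the making of retinoic acid. It measured 18.9, 24.0 and 21.8 FPKM in wild-type libraries 1, 2 and 3 and 22.2, 23.2 and 23.1 FPKM in knockout libraries 1, 2 and 3. The knockout libraries lay within the wild-type range (log2 change 0.09, 95% interval −0.11 to 0.28, limma adjusted p = 0.778). The SD was 0.510 FPKM in the knockout and 2.52 FPKM in wild type, where library 1 was lowest.

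Rpe65 (ENSMUSG00000028174.12, chromosome 3, 159599175 to 159625321, plus strand) encodes the isomerase that makes the cis retinoid from the stored ester. It measured 3.78, 9.25 and 8.11 FPKM in wild-type libraries 1, 2 and 3 and 3.16, 14.1 and 8.73 FPKM in knockout libraries 1, 2 and 3. Each genotype held 1 low library, the first, and the ranges overlapped. The means were 7.04 ± 2.89 and 8.66 ± 5.46 FPKM (SD, n = 3 each), and the log2 change of 0.15 had a 95% interval of −0.93 to 1.23 (limma adjusted p = 0.939). A change of up to 2.35-fold upward on the scale of FPKM + 1 would thus be within the interval. The direction reversed without wild-type library 1 (−0.19) or knockout library 2 (−0.26), with a sex term (−0.17) and with the pigment cell term (−0.23).

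Lrat (ENSMUSG00000028003.6, chromosome 3, 82892579 to 82903973, minus strand) encodes the acyltransferase that esterifies retinol and so supplies RPE65 with its substrate. It measured 0.729, 1.35 and 1.47 FPKM in wild-type libraries 1, 2 and 3 and 0.543, 1.61 and 1.30 FPKM in knockout libraries 1, 2 and 3. At this low level, near the filter of 0.5 FPKM, the first library of each genotype was again the lowest (log2 change −0.04, 95% interval −0.58 to 0.50, limma adjusted p = 0.972).

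Rdh5 (ENSMUSG00000025350.15, chromosome 10, 128913593 to 128922888, minus strand) encodes the dehydrogenase that oxidises cis-retinol to the aldehyde. It measured 5.39, 8.0 and 6.72 FPKM in wild-type libraries 1, 2 and 3 and 3.27, 9.22 and 11.8 FPKM in knockout libraries 1, 2 and 3. The knockout held both the lowest and the highest library (log2 change 0.11, 95% interval −0.74 to 0.96, limma adjusted p = 0.945). Without knockout library 3 the change was −0.21 (adjusted p = 0.922). Rdh5 shares 720 annotated exon bases with Bloc1s1 on the same strand, so some of its fragments could belong to that gene. Bloc1s1 itself measured 57.2 to 64.2 FPKM, with another order of libraries. The part of its fragments in the level of Rdh5 was not tested.

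Stra6 (ENSMUSG00000032327.14, chromosome 9, 58063788 to 58153996, plus strand) encodes the membrane receptor that takes up retinol from its carrier in blood. It measured 2.29, 4.32 and 4.04 FPKM in wild-type libraries 1, 2 and 3 and 1.92, 3.75 and 3.62 FPKM in knockout libraries 1, 2 and 3. Within each genotype library 1 was the lowest and library 2 the highest (log2 change −0.15, 95% interval −0.72 to 0.41, limma adjusted p = 0.874). The annotated gene overlaps Ccdc33 on the opposite strand, which had a mean of 0.0450 FPKM.

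**Figure D3:**
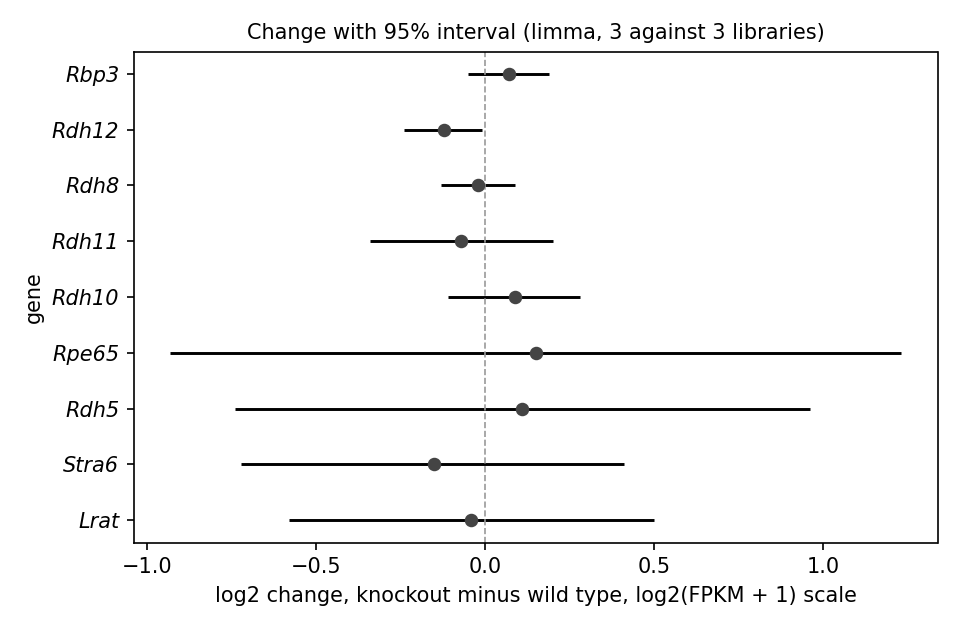
Points give the log2 change of each visual cycle gene, knockout minus wild type on the log2(FPKM + 1) scale, and lines its 95% interval from limma. The interval is narrow for Rbp3 (−0.05 to 0.19) and wide for Rpe65 (−0.93 to 1.23), and only that of Rdh12 (−0.24 to −0.01) leaves out 0 before adjustment for the genes tested.

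The 4 pigment epithelium genes had their low libraries in common. In each of them knockout library 1 was the lowest and wild-type library 1 the next lowest. This order was noticed in these genes after their values were seen, so it is a description of them without a test. Of all genes tested, 2.51% showed it, and 3.29% of the 3165 genes that span at least 0.5 log2 units. The mean deviation of the 4 genes from their own means was −0.43, 0.25 and 0.15 log2 units in wild-type libraries 1, 2 and 3 and −0.71, 0.43 and 0.30 in knockout libraries 1, 2 and 3. The mean of the 3 photoreceptor genes stayed between −0.04 and 0.04 by the same measure, in which opposite deviations of single genes can cancel. Singly they spanned 0.12 (Rdh8), 0.17 (Rbp3) and 0.25 (Rdh12) log2 units over the libraries. Rpe65 spanned a wider range over the libraries than 98.8% of genes within 2-fold of its mean level, Rdh5 than 98.3%, Stra6 than 87.6% and Lrat than 72.8%. By the same measure Rdh11 was at 87.6%, Rdh12 at 75.4%, Rdh10 at 72.5%, Rbp3 at 40.0% and Rdh8 at 12.6%. At like level only Rpe65 and Rdh5 thus ranked above all genes of the other groups. Whole retina does not tell whether fewer cells of a type or less RNA per cell lies behind a low level.

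Ratios of Rpe65 to Lrat, Rdh5 and Stra6 varied less than Rpe65 itself. Rpe65 ran over 4.46-fold, while Rpe65 over Lrat ran over 1.69-fold, from 5.18 to 8.75, over Rdh5 2.18-fold and over Stra6 2.28-fold. Stra6 alone ran over 2.25-fold, no more than its ratio with Rpe65. Against Rgr, an opsin outside the 9 genes, Rpe65 ran over 1.58-fold, from 0.607 to 0.956. Against Pmel, a pigment marker, it ran over 18.3-fold, from 0.490 in knockout library 3 to 8.96 in wild-type library 2. Stra6 over Lrat stayed between 2.33 and 3.54. Rpe65 over Rdh5 was 0.700, 1.16 and 1.21 in wild type and 0.967, 1.53 and 0.738 in the knockout, lowest in wild-type library 1 and knockout library 3. In knockout library 3 Rdh5 reached its highest value while Rpe65, Lrat and Stra6 did not.

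By profile over the 6 libraries, the genes most like Rpe65 among 13143 named genes were Rgr, Ttr, Col8a2, Kcnj13 and Tmem98. Likeness was the root mean square difference between profiles centred on their own mean, 0.179 log2 units for Rgr and 0.190 for Ttr, against 0.649 for Rpe65 from a flat line. For Rdh5 they were Kcnj13 (0.110), Cldn1, Col8a2, Car3 and Cldn10. Lrat was most like Car12 (0.021), Fap, Igsf6, Hacd1 and Selenbp1, and Stra6 most like Car12 (0.090), Igsf6, Cyb561d2, Slc27a6 and Prdm11. Rgr, found in pigment epithelium and Müller glia, takes part in chromophore renewal and measured 6.22, 10.1 and 10.2 FPKM in wild type and 3.31, 15.7 and 10.3 FPKM in the knockout. Ttr, the plasma carrier of the retinol-binding protein, measured 14.1, 21.6 and 26.3 FPKM in wild type and 12.4, 39.1 and 28.9 FPKM in the knockout. Both had the low first libraries and the high knockout library 2 of Rpe65. By this measure Rgr and Ttr were less like the other pigment epithelium genes. Rgr was 0.301 log2 units from Rdh5, which was 0.508 from a flat line. From Lrat it was 0.355 and from Stra6 0.367 log2 units away, further than a flat line (0.281 and 0.326), and so was Ttr (0.303 and 0.344). The measure counts the size of a profile as well as its shape. Rgr spanned 1.95 and Ttr 1.58 log2 units, against 0.76 for Lrat and 0.87 for Stra6. All of them had knockout library 1 lowest and wild-type library 1 next.

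Pigment markers followed the order of Rpe65 only in part. The 17 markers of pigment epithelium and pigment cells summed to 62.8, 75.8 and 85.8 FPKM in wild-type libraries 1, 2 and 3 and to 59.0, 103 and 165 FPKM in knockout libraries 1, 2 and 3, and of the 14 tested 10 were higher and 4 lower, with a median log2 change of 0.22 and none called. By this sum the first libraries were again the lowest and knockout library 3 the highest. Of the 17 markers, 11 were highest in knockout library 3, 3 in knockout library 2, as Rpe65 was, and 3 in wild-type library 2 or 3. Pmel, the melanosome fibril protein, had the largest change (1.48, adjusted p = 0.57, and 0.62 without knockout library 3), at 17.8 FPKM in that library against 0.930 to 3.60 FPKM elsewhere. Dct, a melanin enzyme, was at 34.7 FPKM in it against 2.14 to 8.63 FPKM elsewhere, whereas Ttr, the most abundant of the list, was highest in knockout library 2. Rpe65 in knockout library 3 was 8.73 FPKM, below knockout library 2. Best1, a channel of the pigment epithelium, was listed at 0 in 5 of the 6 libraries and at 0.07 FPKM in wild-type library 2. The 14 markers of ciliary body, iris and choroid summed to 74.8 to 77.4 FPKM in wild type and 82.5 to 120.5 FPKM in the knockout, highest in library 3, with Kera and Pax3 at 0 throughout. Aqp1 alone made up most of that sum, with 63.8 to 66.7 FPKM in wild type and 68.7 to 87.0 FPKM in the knockout. Mfap4 had the largest change (0.85, adjusted p = 0.74, and −0.11 without knockout library 3). How far RNA of these tissues contributes to the levels of Rpe65, Rdh5, Stra6 and Lrat was not tested.

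**Figure D4:**
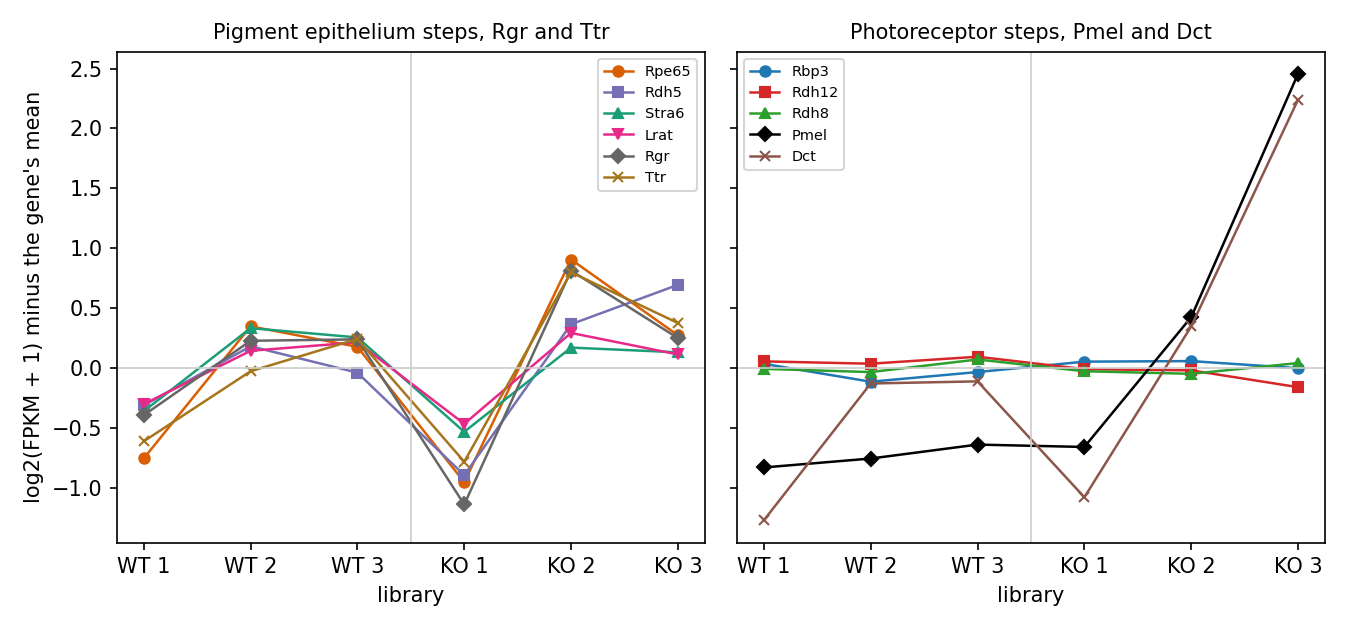
log2(FPKM + 1) of each gene minus its own mean in the 6 libraries, for the pigment epithelium genes with Rgr and Ttr (left) and for the photoreceptor genes with the pigment genes Pmel and Dct (right); lines only join points of a gene. On the left, libraries 1 of both genotypes lie below 0 for each gene, on the right the photoreceptor genes stay near 0 and Pmel and Dct peak in knockout library 3.

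No gene of the wider retinoid pathway passed the test either. Of 41 further genes, 29 were tested, 16 of them higher and 13 lower, with a median log2 change of 0.07, and none was called (1 higher at an unadjusted p under 0.05). Among 11 tested genes of the visual cycle outside the 9, Rdh14, a related dehydrogenase, had the largest change, from 11.6, 12.3 and 10.7 FPKM in the wild-type libraries to 13.3, 14.6 and 14.1 FPKM in the knockout libraries. Its change was 0.26 log2 units (SE 0.07, unadjusted p = 0.00793, limma adjusted p = 0.389). Its genotypes did not overlap, as for 7.83% of all genes in that direction. Rlbp1, the cis-retinal carrier of Müller glia and pigment epithelium, measured 227, 233 and 208 FPKM in wild type and 205, 212 and 199 FPKM in the knockout libraries, a log2 change of −0.11 (adjusted p = 0.576). It did not show the low first libraries of Rpe65, and neither did the opsin relative Rrh at 11.9 to 14.4 FPKM. The 12 Müller glia markers summed to 1828 to 1941 FPKM in wild type and 1863 to 2215 FPKM in the knockout, with Glul the most abundant (log2 change −0.11, adjusted p = 0.522) and Vim that with the largest change (0.69, adjusted p = 0.562, and 0.27 without knockout library 3).

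Carriers and enzymes of retinoic acid gave no called gene among those tested, and the largest change of each list shrank without knockout library 3. Aldh1a1, which makes retinoic acid from retinal, measured 29.3, 28.7 and 27.6 FPKM in the wild-type libraries and 29.0, 34.3 and 81.4 FPKM in the knockout libraries. Its log2 change was 0.59 (limma adjusted p = 0.634), and 0.14 without knockout library 3 (adjusted p = 0.738). Fabp5, a carrier of fatty acids and retinoic acid, measured 22.1, 26.3 and 19.6 FPKM in wild type and 20.5, 30.3 and 61.2 FPKM in the knockout libraries. Its log2 change was 0.56 (adjusted p = 0.646), and 0.14 without knockout library 3 (adjusted p = 0.897). Both were highest in knockout library 3, the library with the most lens and pigment RNA, and the part of that RNA in their levels was not tested. Of the 9 carriers 6 were tested, 3 of them higher and 3 lower. Of the 12 measured genes of retinoic acid synthesis and breakdown 6 were tested, 5 of them higher and 1 lower. A mean under 0.5 FPKM left the others untested. The 6 retinoic acid receptors had 3 higher and 3 lower, with a median of 0.03. Rxrb was the most abundant (log2 change −0.02, adjusted p = 0.966), and Rarb had the largest change (0.21, adjusted p = 0.576).

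Photoreceptor markers gave the setting for Rbp3, Rdh8 and Rdh12. Among the 16 rod markers 6 were higher and 10 lower, with a median of −0.03 and none called, Sag, rod arrestin, having the largest change (0.13, adjusted p = 0.573). Among the 11 cone markers 3 were higher and 8 lower, with a median of −0.02. Gnb3 was the 1 marker called, rising by 0.71 (adjusted p = 0.00119). Genotypes did not overlap in 2 rod and 2 cone markers lower in the knockout, as Rdh12 was, and in 1 of each higher. Of all genes tested, 8.04% were lower and 7.83% higher in that way. The median of the 3 photoreceptor visual cycle genes was −0.02.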

How the data were processed

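RNA of mouse retina was measured in 3 wild-type and 3 Unc119 knockout libraries, grouped by their titles. Extraction used TRIzol and library preparation a stranded mRNA kit, per the labels' protocols. Per the submitters' processing notes, TopHat2 2.1.1, Cuffdiff 2.2.1 and the mm10 genome were used. The authors deposited 1 table of FPKM per gene symbol and library, per the file headers. The sources used here do not give the annotation, the strand setting or the scaling between libraries. FPKM are not counts, so no interval for counting error can be given. The FPKM of a library summed to 384810 to 390256 in 5 libraries and to 401874 in knockout library 3.

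Genes with a mean of at least 0.5 FPKM over the 6 libraries (14176) were compared on log2(FPKM + 1) with limma 3.58.1 (R 4.3.3), two-sided, with a mean-dependent prior variance and Benjamini-Hochberg adjustment over all genes tested, at a threshold of 0.05. Fold changes on this scale understate those of low genes. An exact permutation test of 3 against 3 cannot go below 0.1 and is not reported. The script recovered known changes in simulated data with independent noise. The known changes were larger than those of the visual cycle genes, so sensitivity to changes as small as theirs was not shown. Alternatives were a pseudocount of 0.1, other filters, quantile normalization, a constant prior variance, terms for replicate number, sex, pigment markers and lens markers, and each library left out. No pair of libraries held identical values, and the correlation of log2(FPKM + 1) ran from 0.983 to 0.993. Relative depth is the commonest ratio to wild-type library 2 of genes at up to 0.3 FPKM.

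The genes described and the lists (other visual cycle genes, carriers, retinoic acid enzymes and receptors, and markers of pigment cells, Müller glia, rods, cones, lens, and ciliary body, iris and choroid) were chosen with earlier results of these data known. Of each list, called members, the most abundant member and the member with the largest change were named. Further genes were named by likeness of profile (5 for each visual cycle gene spanning at least 0.5 log2 units), and Rlbp1, Rrh, Dct, Best1 and Bloc1s1 after their values were seen. A further rod marker of the list is not reported here. Gene coordinates are from GENCODE M21 on mm10. Promoters are RefSeq's on GRCm38.p6. Python 3.11.15 with pandas 2.3.3 was used.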

Additional observations from a re-analysis of the deposited data

Results flagged for a closer look

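Rpe65 and Rdh5 went opposite ways within the sexes. Sex was read from Xist and the Y-linked genes of each library, which made wild-type libraries 1 and 2 and knockout library 1 male and the others female. Within males knockout library 1 was below both wild-type libraries, by a log2 change of −0.75 for Rpe65 and −0.83 for Rdh5. Within females both knockout libraries were above wild-type library 3, by 0.41 for Rpe65 and 0.57 for Rdh5. This was noticed in the data, so a test of it on the same libraries gives no independent support. A limma interaction of sex and genotype over all genes tested gave −1.16 for Rpe65 (unadjusted p = 0.144, adjusted p = 1) and −1.40 for Rdh5 (unadjusted p = 0.00904, adjusted p = 1). Of the 14176 genes 11 were past an adjusted p of 0.05 and 433 past an unadjusted p of 0.05. Each sex has 1 library on 1 side. The male knockout value rests on knockout library 1, in which all 4 pigment epithelium genes were lowest, so sex and the make-up of that library cannot be told apart.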

How the results depend on the processing

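No visual cycle gene tested was called in any of the 15 alternatives, where their lowest adjusted p ran from 0.475 to 0.94; Lrat was not tested under the filter of 2 FPKM. Unc119 was called in each, with log2 changes of −1.39 to −1.28. The number of genes called higher was 29, and 17 with a constant prior variance, 17 with a sex term, 19 with the pigment cell term, 5 with the lens term and 9 to 14 without single libraries. The number called lower was 4, and 2 with no filter, 2 with a sex term, 2 with the lens term and 2 to 4 without single libraries. With the replicate block 13 genes were called higher and 2 lower, and the changes of the 9 genes kept their size, but the standard errors of 5 moved by over 1.5 times, from 0.466 to 0.152 for Rpe65 (95% interval −0.22 to 0.53 in place of −0.93 to 1.23), from 0.244 to 0.107 for Stra6, from 0.233 to 0.151 for Lrat, from 0.368 to 0.237 for Rdh5 and from 0.117 to 0.0722 for Rdh11, without a call. The interval of Rdh12 became −0.26 to 0.01. The labels do not say that equal numbers pair libraries. Over all genes tested, same-numbered deviations correlated at 0.072, −0.09 and −0.119. Such a correlation cannot tell whether a batch was shared that touched few genes. In the 4 pigment epithelium genes library 1 was the lowest of each genotype. Whether equal numbers share a batch was not tested. Wild-type library 3 correlated more with knockout library 2 (0.166), and wild-type library 2 with knockout library 3 (0.121). Directions near 0 reversed. Rpe65 was −0.17, −0.23 and −0.12 with the sex, pigment cell and lens terms and −0.26 to 0.67 without single libraries. Rdh5 was −0.13, −0.37 and −0.38 with those terms and −0.21 to 0.59 without single libraries. Without single libraries Lrat ran from −0.20 to 0.18, Stra6 from −0.37 to 0.075, Rdh8 from −0.0478 to 0.0091 and Rdh10 from −0.0015 to 0.16. The cause was not tested. Rbp3 stayed above 0 (0.04 to 0.11) and Rdh12 below 0 (−0.15 to −0.06) in all alternatives, without a call. Low genes such as Lrat and Stra6 are limited by an unknown depth.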
